A study of Homo sapiens with 6 samples.

Results

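Repeat-derived RNA was described in empty-vector human embryonic stem cells in which a short hairpin RNA (shRNA) against EXOSC3 was switched on, with no rescuing transgene present. The comparison was chosen by its label, as 1 library with doxycycline (dox) against 1 without it in the line that carries the empty vector, PB, and it uses 2 of the 6 libraries. All 6 libraries came from H1, an established embryonic stem cell line, at passages 40 to 60. Every library came from cells with the dox-inducible hairpin against EXOSC3, grown without feeder cells under puromycin and blasticidin. The labels give dox at 2 mg/ml, and whether the unit was meant as printed could not be checked here. The other 4 libraries are pairs without and with dox from 2 clones that carry EXOSC3r, a form of the EXOSC3 gene that the hairpin does not target, and their values are set beside the PB pair. No passage is given per library, the PB pair has no replicate, and each EXOSC3r clone is 1 line. A difference between single libraries compares those libraries, so no test was made and no p-value is given.

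The RNA exosome is a complex that degrades and trims RNA from the 3′ end, in the nucleus and the cytoplasm. EXOSC3 is one of the subunits of its cap, through which RNA is threaded towards the catalytic subunits. Among its substrates are short-lived noncoding transcripts, and repeats are a large source of such RNA. Alpha satellite (ALR) is the tandem repeat of human centromeres, L1 and Alu are the most abundant retrotransposons, and HERVH with its long terminal repeat (LTR) LTR7 is an endogenous retrovirus known for its transcription in human pluripotent cells.

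The deposited tables list 1047 sequences, of which 1045 are listed by name only, most of them repeats, and the rest are transcripts of ACTB and GAPDH. Some of those names, such as UHG, belong to genes or conserved sequences. A consensus stands for every genomic copy of its repeat, so no coordinates can be given, and a read matching more than 1 related consensus was shared out by estimation. In the PB pair 779 sequences had a count and 268 had none. The 538 sequences with at least 100 counts summed over the pair (51.4% of those listed) held 99.91% of the counts and are described here. MER58A was the only one of them with 0 counts in either PB library. Of the 538, 18 had fewer than 50 counts without dox and so passed mainly through the dox library. They include MER58A, ACRO1, HERVG25, MER83C and TIGGER5_B, 5 of the sequences counted below as past 1.5-fold higher. Counts given to the listed sequences totalled 4493011 without dox and 4565801 with dox in PB cells, within the range of 3745260 to 5260182 over the 6 libraries. Levels are in CPM, counts brought to a common library size after scaling by the trimmed mean of M-values (TMM), and changes are log2 of the level with dox over the level without. EXOSC3 and marker genes of embryonic stem cells were not analysed here, so neither the depletion nor the cell type was checked by them.

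After TMM scaling most repeat RNAs differed little between the PB libraries. The median log2 change over the 538 sequences was -0.0023, the interquartile range was -0.12 to 0.12, and 265 were above 0 against 273 below. TMM sets the bulk of sequences near 0, so this median and split cannot show a shift shared by most sequences. The median was 0.086 with scaling to the library total, 0.17 with ACTB and GAPDH, and -0.02 with DESeq2 size factors. A change within 0.25 on the log2 scale was seen for 77.1% of sequences, and one within 0.5 for 93.1%. Past 1.5-fold, the size used as a call here, 15 sequences were higher with dox (2.79% of those described) and 5 were lower (0.929%). Past 2-fold, 8 were higher (1.49%) and 1 was lower (0.186%). In the rescued lines the dox library was past 1.5-fold higher for 20 sequences (3.72%) and lower for 11 (2.04%) in clone 1, and higher for 14 (2.6%) and lower for 7 (1.3%) in clone 2. The PB pair, with 20 sequences past the size, thus had no more than the clones, with 31 and 21. Among the 259 sequences with at least 1000 counts in the PB pair the numbers were 5 in PB, 3 in clone 1 and 3 in clone 2. Of the 20 PB sequences past the size, 12 lay among the 131 sequences with 100 to 299 counts, where clone 1 had 23 and clone 2 had 14. The filter was set on PB counts alone. Library sizes after TMM scaling were 5125084 and 5538014 in PB cells and 3912346 to 4105966 in the clones, so scarce sequences were counted less precisely in the clones.

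Satellites, the tandem repeats of centromeres and heterochromatin, made up 8 of the 15 higher sequences and none of the lower ones. Related variants of alpha satellite were 4 of those 8. Over all 16 satellites described, 50% were past 1.5-fold higher and the median log2 change was 0.67. Over the 522 other sequences 1.34% were past it and the median was -0.0065. The same 16 satellites had 4 past 1.5-fold higher and 1 lower in clone 1, with a median of 0.34, and 4 higher and none lower in clone 2, with a median of 0.25. Error from counting alone can be given for each fold as a 95% exact (Clopper-Pearson) interval, which covers neither culture nor library preparation. For 8 sequences the whole interval lay above 1.5-fold higher. These were the satellites ALRb, ALR1, ALR, MER22, 6kbHsap, GGAAT and ACRO1, together with the DNA transposon MER58A. For 1 sequence, the LTR MER68B, it lay wholly past 1.5-fold lower.

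**Figure D1:**
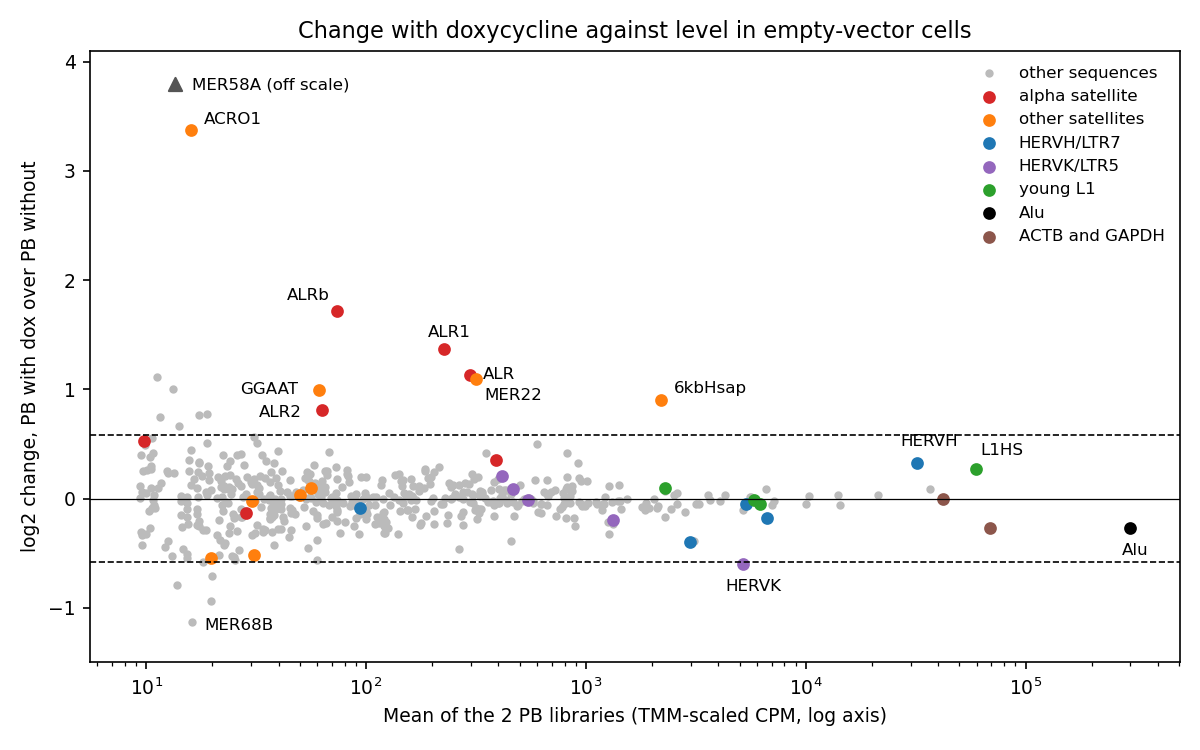
Log2 change with dox in PB cells (y axis) against the mean level of the 2 PB libraries in TMM-scaled CPM (x axis, log scale). Each point is 1 of 538 sequences, dashed lines mark 1.5-fold, and MER58A, with 0 counts without dox, is drawn as a triangle off scale. Above 100 CPM the points past the upper line are ALR1, ALR, MER22 and 6kbHsap, and HERVK is the only one past the lower line.

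Alpha satellite RNA was higher with dox across most of its variants. All 7 listed variants passed the filter, 6 of them were above 0, and 4 were past 1.5-fold higher, with a median log2 change of 0.81, the highest of 22 repeat classes. The variants are related, so reads could be divided among them by estimation, and the 7 are not separate observations. The part of this division in the values of single variants was not tested. The variant ALRb went from 34.1 CPM (175 counts) to 112.7 CPM (624 counts), a log2 change of 1.72 with a counting interval of 1.48 to 1.97. ALR1 went from 126 to 327 CPM, a log2 change of 1.37 (interval 1.24 to 1.501), and ALR from 186 to 408 CPM, a log2 change of 1.14 (interval 1.03 to 1.25). ALR2 followed, from 45.7 to 79.99 CPM, with a log2 change of 0.81. The variant with the most counts, ALR_, differed least among those above 0, from 342 to 435 CPM (log2 0.35, interval 0.26 to 0.44). ALRa_ had 41 and 64 counts and ALRa 153 and 151, and both intervals include no change.

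The dox and no-dox libraries of the rescued clones differed in alpha satellite as well, from lower levels. ALRb stood at 23.5 CPM without and 50.1 with dox in clone 1, and at 26.5 and 48.5 in clone 2. For ALR1 the levels were 87.2 and 157 CPM in clone 1 and 92.3 and 189 in clone 2. For ALR they were 106.3 and 211 CPM in clone 1 and 109 and 253 in clone 2. In each of these 3 variants the PB library with dox was the highest of the 6, and the PB library without dox lay between the clones' no-dox and dox libraries. ALR_ was lowest in clone 1, at 183 and 268 CPM, against 276 and 343 CPM in clone 2. All 7 variants were above 0 in both clones, with median log2 changes of 0.56 in clone 1 and 0.87 in clone 2. Summed over the 7, alpha satellite went from 771 to 1401 CPM in PB cells, from 469 to 771 in clone 1 and from 572 to 938 in clone 2. The summed log2 changes were 0.86, 0.72 and 0.71. The difference between PB and the clones in this change was not tested.

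A second set of satellites was higher with dox in the PB pair and close to level in both clones. The largest in level was 6kbHsap, a satellite with a repeat unit of several kilobases, with 7836 counts without and 15857 with dox. Its level went from 1529 to 2863 CPM in PB cells, against 1482 and 1557 CPM in clone 1 and 1496 and 1575 CPM in clone 2. The other 5 libraries therefore lay close together, and the PB library with dox stood alone at 1.87-fold the library without dox, with a counting interval of 1.82 to 1.92. MER22, another satellite in spite of its name, was also highest in the PB library with dox, going from 202 to 431 CPM in PB cells, 183 to 191 in clone 1 and 195 to 185 in clone 2. Its log2 changes were 1.09 in PB cells, 0.06 in clone 1 and -0.08 in clone 2. ACRO1, a satellite of acrocentric chromosomes, had 14 counts without and 162 with dox in PB cells, and from 6 to 9 counts in each clone library. This is 10.4-fold, with a wide counting interval of 6.20 to 20.03, and log2 changes of 0.05 and -0.04 in the clones. Those clone values rest on few counts. The difference between PB cells and the clones was not tested for any of these.

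GGAAT, the simple satellite of pericentromeric heterochromatin, differed from these in its clones. It went from 40.8 to 81.4 CPM in PB cells and from 63.4 to 132 CPM in clone 1, but from 59.3 to 54.6 CPM in clone 2. The library with the most GGAAT was therefore clone 1 with dox and not PB with dox. CER was lower in PB cells with dox, at 36.5 and 25.5 CPM (log2 -0.52, interval -0.84 to -0.20), and higher in both clones. SATR1 was at log2 -0.54 in PB cells, -0.70 in clone 1 and 0.00 in clone 2. HSAT5 (0.10), MSR1 (-0.02) and SATR2 (0.03) differed little in PB cells. Of the 35 satellites listed, 19 fell below the filter with at most 83 counts each over the PB pair, and 6 of those had none. HSATII, the classical pericentromeric satellite, had 14 and 10 counts and GSATII 39 and 44.

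Together, satellites took 0.313% of the counts in PB cells without dox and 0.605% with dox. In clone 1 the shares were 0.208% and 0.212%, and in clone 2 they were 0.256% and 0.327%. The summed level was 1.82-fold higher with dox in PB cells, 1.20-fold in clone 1 and 1.18-fold in clone 2. The 6kbHsap sequence held 55.8% of satellite counts in PB cells without dox and 57.4% with it, so the PB sum mostly follows that 1 sequence. Its share was smaller with dox in the clones, at 54.7% against 62.3% in clone 1 and 52.8% against 59.3% in clone 2. The higher clone sums with dox came mainly from alpha satellite, because 6kbHsap was close to level there. Of the 16 satellites, 6 had a larger log2 change in PB than in both clones, 4 a smaller one than in both, and 6 lay between. With bulk RNA, more cells with a transcript and more of it per cell cannot be told apart.

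**Figure D2:**
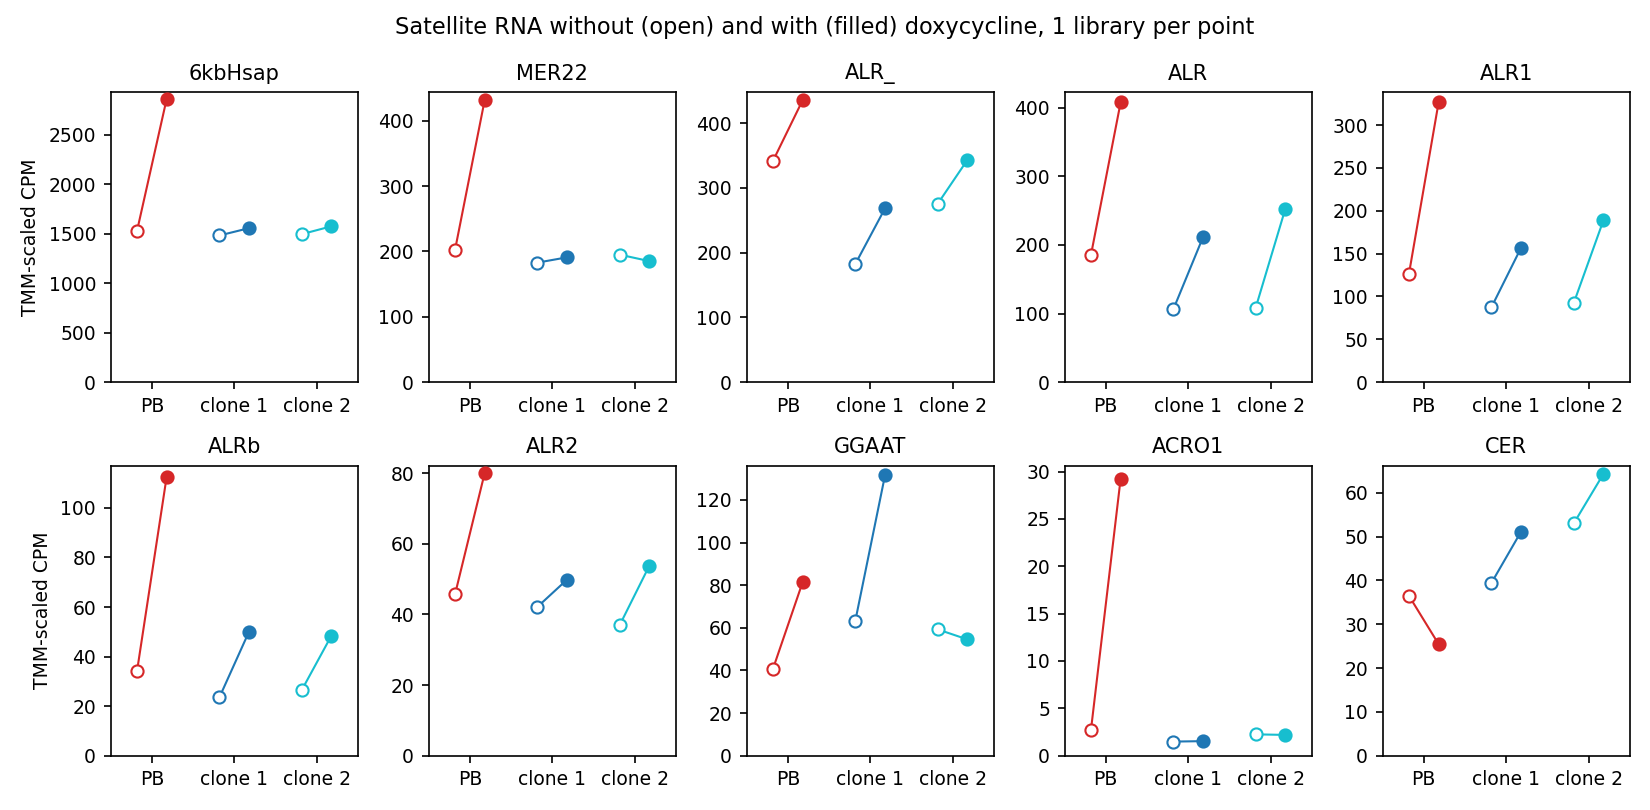
Levels of 10 satellites in TMM-scaled CPM (y axis, from 0, its own scale in each panel) in PB cells and in EXOSC3r clones 1 and 2 (x axis), with 1 library per point, open without dox and filled with dox, joined within a line. The filled PB point is the highest of the 6 in 6kbHsap, MER22, ALR_, ALR, ALR1, ALRb, ALR2 and ACRO1, while clone 1 with dox is the highest in GGAAT and clone 2 with dox in CER.

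The endogenous retrovirus HERVH was one of the most abundant repeats, and it differed from its LTRs. HERVH stood at 28392 CPM without and 35678 CPM with dox in PB cells, a log2 change of 0.33 (interval 0.32 to 0.34). In clone 1 it went from 27572 to 20519 CPM and in clone 2 from 28169 to 21046 CPM, log2 changes of -0.43 and -0.42. The 3 no-dox libraries were close together, and the dox libraries lay above them in PB cells and below them in both clones. The LTRs of HERVH were lower or level in PB cells with dox: LTR7B was at log2 -0.40, LTR7A at -0.18, LTR7C at -0.09 and LTR7Y at -0.05. In the clones these were between -0.10 and -0.51. The class therefore had a median of -0.09 with a summed change of 0.17, opposite in sign, because HERVH holds most of its counts. Other scalings turn the sign of LTR7A, LTR7C and LTR7Y.

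HERVK, the youngest family of human endogenous retroviruses, was the only abundant sequence past 1.5-fold lower. It went from 6220 CPM (31880 counts) to 4100 CPM (22708 counts) in PB cells, a log2 change of -0.60 (interval -0.63 to -0.58). Clone 2 went the same way, from 6437 to 4171 CPM, and clone 1 the opposite way, from 5050 to 7973 CPM. Its youngest LTR, LTR5_Hs, had the same signs, at log2 -0.19 in PB cells, 0.56 in clone 1 and -0.38 in clone 2, although its PB value ran from -0.21 to 0.03 over other scalings and settings. The older LTR5A, LTR5B and LTR5 were between -0.01 and 0.21 in PB cells. HERVK was just past the size called here, and it was short of it when counts were scaled to the library total, with a log2 change of -0.51.

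**Figure D3:**
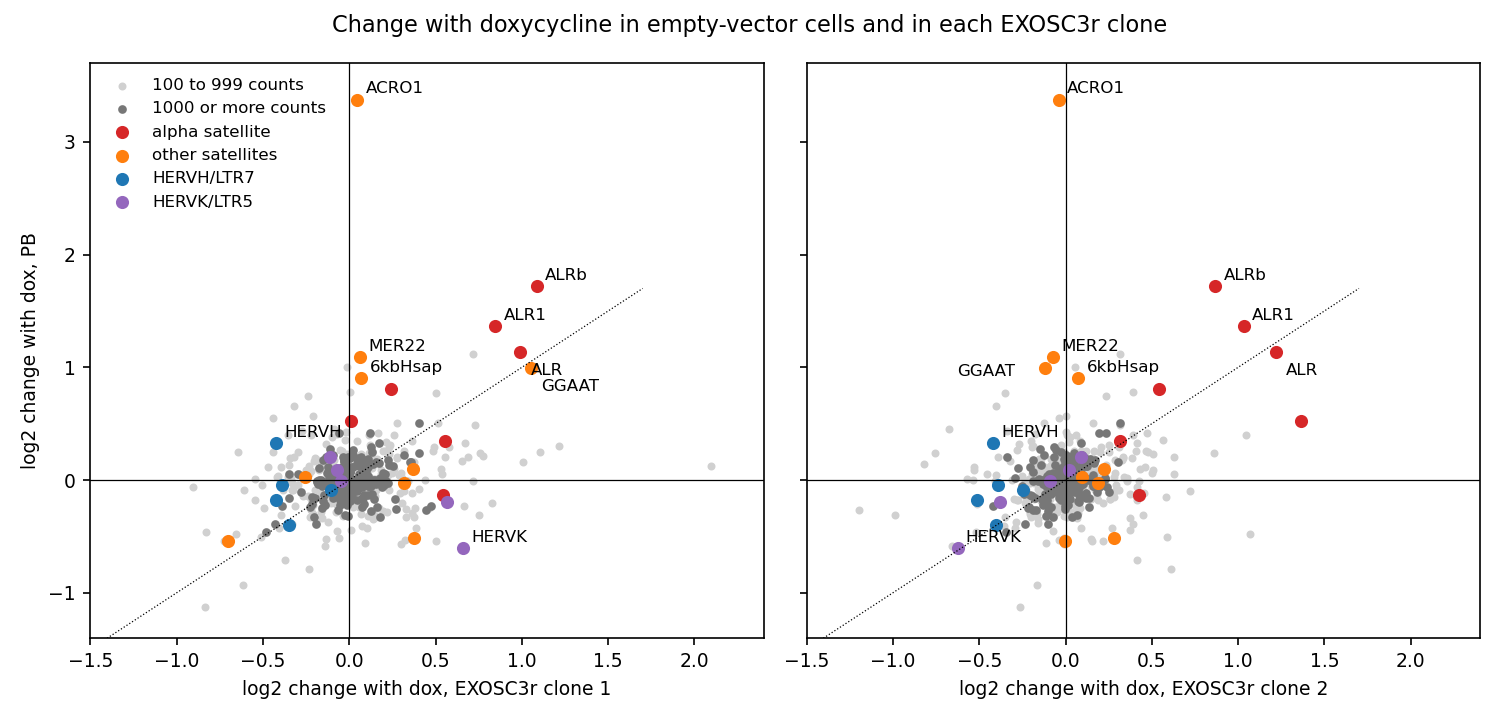
Log2 change with dox in PB cells (y axis) against that in EXOSC3r clone 1 (left) and clone 2 (right), with 1 point per sequence and a dotted line at equal change. MER58A and LOR1b_LTR are left out because a library with 0 counts puts them far off the axes. Alpha satellites lie mostly to the upper right in both panels, ACRO1, MER22 and 6kbHsap lie near 0 in the clones, and HERVK changes side between the clones.

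Across all 538 sequences the changes in different lines were only weakly alike. Spearman's rho between the PB change and the clone change, across sequences, was 0.18 with clone 1 and 0.19 with clone 2, and between the clones it was 0.14. Among the 259 sequences with at least 1000 counts the values were 0.18, 0.26 and 0.23. Sequences are not independent replicates, and all changes share 1 scaling, so these are descriptions. The PB change, taken with its sign, had almost no rank relation to consensus length (rho -0.02) or to mean level (rho -0.05) over the 538 sequences. Its size without sign was larger in scarce sequences. The median absolute log2 change in PB cells was 0.25 for sequences with 100 to just under 300 counts in the PB pair. It was 0.14 from 300 to just under 1000 counts, and 0.09 from 1000 to just under 10000. Of the 15 sequences past 1.5-fold higher in PB cells, 7 were above 0 in both clones, 7 in 1 clone and 1 in neither. Of all 538 sequences, 150 were above 0 in both clones, 240 in 1 and 148 in neither. Past 1.5-fold higher in both clones were 3 of the 15, namely ALR, ALR1 and ALRb, against 5 of all 538 (0.929%).

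L1 elements, the autonomous retrotransposons, differed little in level but more in share. None of 89 L1 names was past 1.5-fold, and their log2 changes ran from -0.50 to 0.27. The youngest, L1HS, the only L1 family still active in humans, was at the top of that range. It went from 54061 to 65032 CPM in PB cells, a log2 change of 0.27 (interval 0.26 to 0.27), against 0.02 in clone 1 and -0.05 in clone 2. The next youngest families did not share this size, with L1PA2 at 0.09, L1PA3 at -0.01 and L1PA4 at -0.05. The 28 names of L1 5′ ends had a median of 0.0047 and the other 61 a median of -0.010. SVA, a composite retrotransposon that depends on L1, was near level, with SVA_A at 0.09 and SVA2 at 0.02.

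Alu, the short retrotransposon that held more counts than any other sequence, was lower with dox in PB cells. It took 37.3% of counts without and 32.99% with dox, a loss of 4.31 percentage points, and its log2 change after scaling was -0.27. Clone 1 had a log2 change of 0.44 and clone 2 of -0.17, so the lines did not share a direction. Alu copies lie in the introns and untranslated regions of many genes, so reads of such transcripts also count as Alu. The transcripts GAPDH (log2 -0.27) and ACTB (-0.01) were measured in the same table, and in clone 1 they stood at 0.12 and 0.21. The snoRNA host gene UHG stood at -0.33 in PB cells and 0.18 in clone 1, and HSFAU at -0.17 and 0.26. In clone 2 all 4 were below 0, between -0.07 and -0.19. They thus had the sign of Alu in each line under TMM scaling, although ACTB and HSFAU change sign in PB cells under other scalings, and their part in the Alu value was not tested.

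Most of the larger shares with dox were in L1. Young L1 took 1.81 percentage points more of the counts with dox, older primate L1 0.751 more and the remaining L1 0.696 more. The gain of young L1 was mainly that of L1HS. The summed level of young L1 went from 68416 to 79292 CPM, and that of L1HS alone from 54061 to 65032 CPM. HERVH with LTR7 took 0.985 points more, and satellites other than alpha 0.210. HERVK with LTR5 took 0.203 points less and ACTB with GAPDH 0.748 less. A share is taken of a fixed whole, so a smaller share for 1 sequence gives larger ones elsewhere. After TMM scaling the medians of both older L1 groups were within 0.01 of 0.

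**Figure D4:**
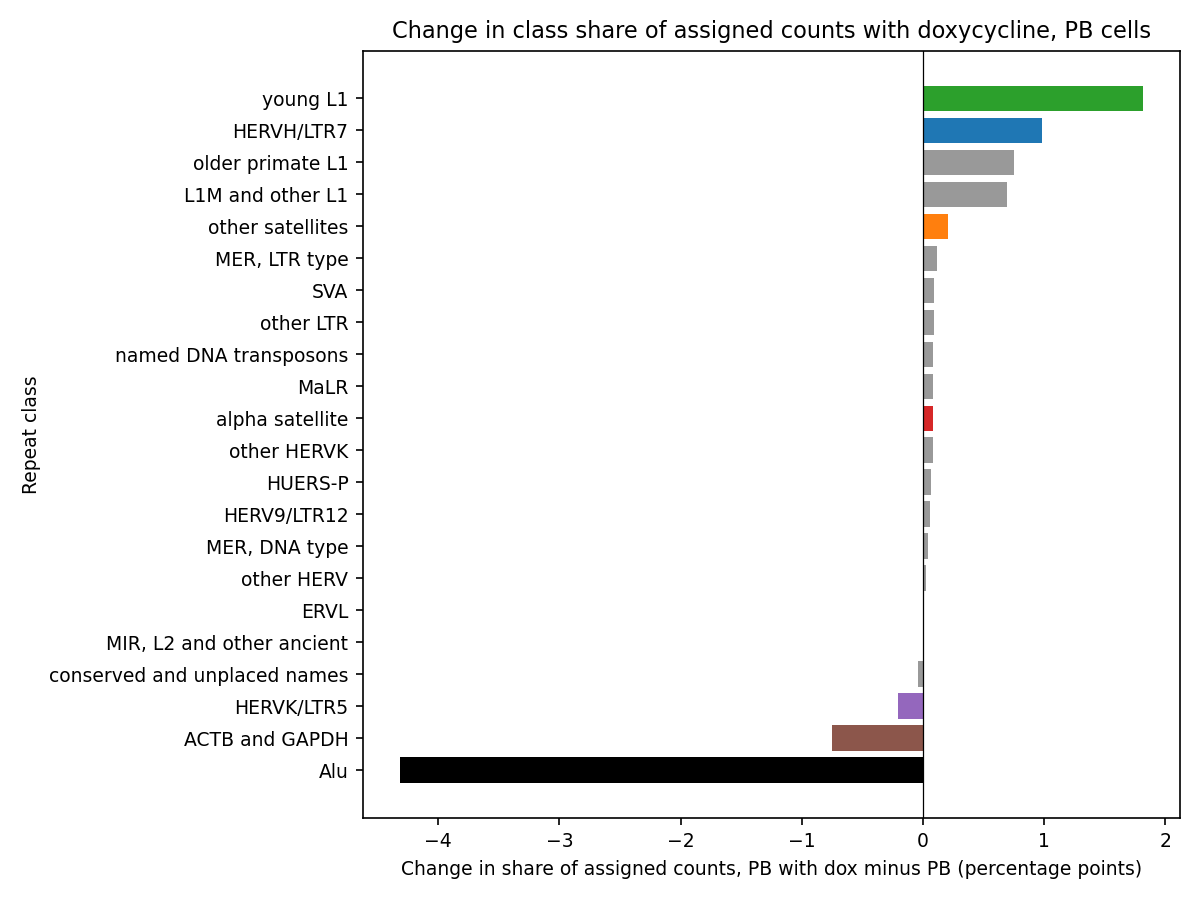
Change in the share of assigned counts, PB with dox minus PB without, in percentage points (x axis) for 22 repeat classes (y axis). Each bar is 1 class from 1 pair of libraries, with no error bar because there is no replicate. Alu stands at -4.31 points and young L1, mainly L1HS, at the opposite end with 1.81, while both satellite classes are small in share.

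Ranked by median log2 change under TMM scaling, 20 of the 22 classes lay within 0.2 of 0. The exceptions were alpha satellite and Alu, which is a single sequence. Over other scalings and settings the Alu value ran from -0.28 to -0.05 and the young L1 median from 0.02 to 0.27. HUERS-P, a group of endogenous retroviruses, ranked next to alpha satellite with a median of 0.20 over 4 sequences. HUERS-P1 went from 497 to 704 CPM in PB cells, a log2 change of 0.50 (interval 0.43 to 0.57), and was also higher in both clones at 0.40 and 0.32. The other satellites had a median of 0.10 with a spread from -0.54 to 3.37, and that median ran from 0.003 to 0.999 over other scalings and settings. The 28 other HERV internal sequences had a median of -0.11, with 8 above 0 and 20 below, but that median ran from -0.12 to 0.12 over other scalings and settings. Among them HERV4_I was at -0.39 in PB cells, -0.43 in clone 1 and -0.23 in clone 2. The large classes of LTRs (108 MER and 109 other LTR names) had medians of 0.02 and 0.01. DNA transposons had medians of -0.004 over 36 MER names and -0.02 over 38 other names.

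**Figure D5:**
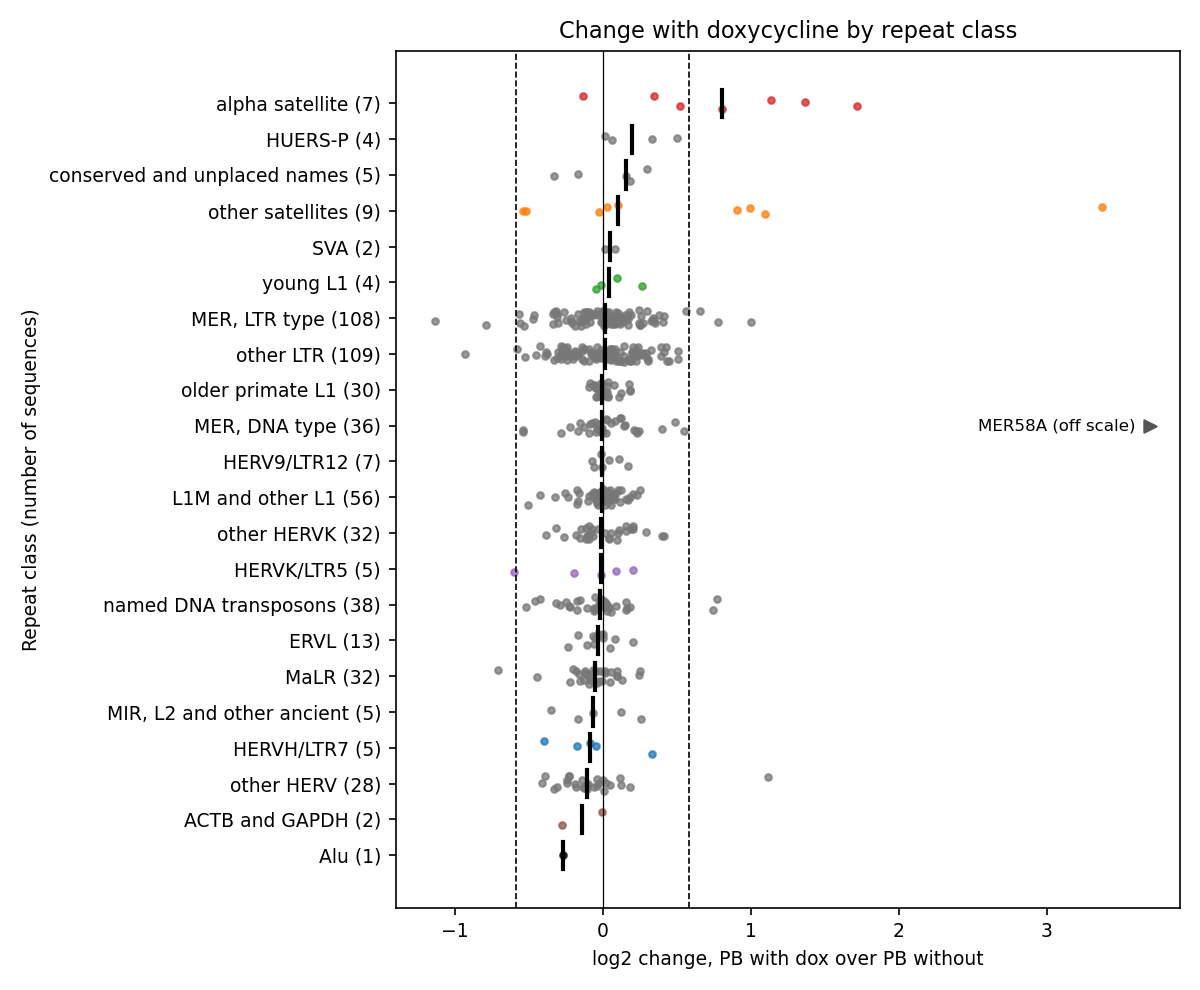
Log2 change with dox in PB cells (x axis) by repeat class (y axis, with the number of sequences described), ordered by class median. Points are sequences, black bars are medians, dashed lines mark 1.5-fold and MER58A is drawn off scale. Alpha satellite is the only class whose median, 0.81, is past a dashed line.

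The other sequences past 1.5-fold were scarce. Of the 7 higher ones that are no satellites, HERVG25, MER83C, MER4CL34, TIGGER5, TIGGER5_B and MER101B had 121 to 203 counts summed over the PB pair, as did MER58A with 150. HERVG25 went from 36 to 85 counts and was also above 0 in clone 1 (0.72) and clone 2 (0.32). MER83C went from 45 to 98 counts and was level in both clones. On the low side MER68B went from 114 to 56 counts (log2 -1.13, interval -1.63 to -0.66) and was below 0 in clone 1 (-0.84) and clone 2 (-0.26). LTR1B0 (-0.93) was below 0 in both clones too, while MER67A (-0.79) and MLT1F (-0.71) were below 0 in clone 1 and above it in clone 2. Both are short of 1.5-fold when TPM is used. Just inside the size on the high side was MER101B at 0.66 and just outside it MER72B at 0.57. On the low side HERVK lay just inside at -0.60 and LTR72B just outside at -0.58.

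MER58A, a DNA transposon, was the sequence with the largest change and has close relatives among the listed names. It had 0 counts without and 150 with dox in PB cells, which is at least 46.3-fold higher when set against a floor of 3 counts in the library at 0, while the exact counting interval starts lower, at 37.2-fold. In the clones it went from 81.3 to 4.09 CPM and from 38.5 to 93.5 CPM. Summed with the related MER58 names, 307 counts without and 524 with dox gave 1.58-fold (interval 1.37 to 1.82) in PB cells, and log2 changes of -1.08 in clone 1 and 0.39 in clone 2. The part that the division of reads between these names had in the MER58A value was not tested. When all related names were summed, 291 groups with at least 100 counts remained, of which 9 were past 1.5-fold higher and 3 lower. The ALR group, MER22, 6kbHsap, ACRO1 and GGAAT were all among the 9, with HERVG25 and the MER58, MER97 and MER90 groups, the last pair named after their values were seen. The 3 lower ones were the HERVK group (0.665-fold), LTR41 (0.62-fold, 82 and 55 counts) and TIGGER12 (0.64-fold, 61 and 42 counts). LTR41 and TIGGER12 were also named after their values were seen. The groups that hold the remaining scarce sequences past 1.5-fold were all short of that size in PB cells. These groups hold many more counts than the scarce sequence in them, so their values cannot show whether that sequence differed. The MLT1 group, for example, had 10778 counts without and 11127 with dox, and MLT1F had 127 and 84. The TIGGER5 group was at 1.02-fold, the MER4 group at 1.05-fold, the MER83 group at 1.07-fold and the MER101 group at 1.14-fold. On the low side the MER68 group was at 0.95-fold, the LTR1 group at 0.963-fold, the MLT1 group at 0.955-fold and the MER67 group at 0.844-fold. The counting interval did not include equal levels for MER67 (0.73 to 0.97), MER101 (1.01 to 1.28), MER4 (1.03 to 1.07) and MLT1 (0.93 to 0.98).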

How the data were processed

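Stranded total RNA libraries without rRNA were quantified by the authors, and bcl2fastq 2.17, Trimmomatic 0.36 and Salmon 0.13.0 are listed per the submitters' processing notes. The index and genome build are not given in the sources used here. Per the file headers, each deposited table holds estimated counts, not normalised, and TPM values scaled within the listed sequences.

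Counts were rounded to whole numbers and scaled with TMM (edgeR 4.0.16, R 4.3.3) over the 6 libraries, on 699 sequences with at least 10 counts in at least 1 library. The log2 change used a pseudocount of 0.5 counts, added before scaling. Intervals are exact 95% binomial intervals from counting alone (SciPy 1.17.1), and counts divided by estimation are not independent molecules. Totals cover reads given to these sequences and are not sequencing depth. The PB pair and each clone pair differed beyond sampling noise, so none was a copy of another. Classes were set by name patterns. Alternatives were other scalings (total, DESeq2 1.42.0 size factors, ACTB with GAPDH), TPM, other pseudocounts and filters, and related names summed. The code was tested on simulated data.

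The sequences to be named were, among those passing the filter, the 15 largest increases and decreases, the 15 most abundant, in each class the 4 most abundant and the extremes, all members of the satellite, HERVH/LTR7, HERVK/LTR5, young L1 and SVA lists, and ACTB and GAPDH. HSATII and GSATII, below the filter, and sequences just outside 1.5-fold were named after their values were seen. Members and lists were chosen with earlier results of these data known.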

Additional observations from a re-analysis of the deposited data

Results flagged for a closer look

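The sign of the change with dox was compared between PB cells and both EXOSC3r clones for 46 sequences, those past 1.5-fold in PB cells and the satellite, HERVH/LTR7, HERVK/LTR5, young L1, SVA, Alu, ACTB and GAPDH lists. It was opposite to both clones for 7 of the 46, against 121 of all 538 sequences (22.5%), and none of these differences was tested. HERVH (log2 0.33 in PB cells, -0.43 and -0.42 in clones 1 and 2) had 145511 counts in PB cells without and 197583 with dox. MER101B (0.66, against -0.32 and -0.40) had 56 and 96 counts in PB cells. CER was at -0.52 in PB cells, against 0.38 and 0.28, and ALRa at -0.13, against 0.55 and 0.43. The PB values of L1PA2 (0.094), SVA_A (0.086) and MSR1 (-0.022) were within 0.1 of 0. The PB sign of ALRa and MSR1 turns under other scalings, with ranges of -0.15 to 0.08 and -0.04 to 0.19.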

How the results depend on the processing

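The number of sequences past 1.5-fold higher with dox in PB cells was 15 and the number lower 5. Related names summed, an alternative chosen after seeing the data, gave 9 and 3. Scaling to ACTB and GAPDH gave 27 and 3, log2(TPM + 1) 29 and 2, and log2(TPM + 0.1) 34 and 2. These settings move the median of all sequences upwards by 0.17, 0.22 and 0.22. With no filter the numbers were 78 and 66, with at least 20 summed counts 38 and 22, and with at least 1000 they were 4 and 1. A 2-fold size gave 8 and 1. Scaling to the total gave 21 and 4, and DESeq2 size factors 15 and 6. The log2 change ran from 0.89 to 1.13 over the alternatives for 6kbHsap, from 1.12 to 1.35 for ALR, from 0.31 to 0.56 for HERVH and from -0.62 to -0.37 for HERVK. HERVK was short of 1.5-fold under total, ACTB with GAPDH and TPM scaling, MLT1F under ACTB with GAPDH and TPM, MER67A under TPM and HERVG25 under log2(TPM + 1). Without a pseudocount MER58A has no log2 value, since 1 of its libraries is at 0. No called sequence changed sign. No paired analysis was possible because the PB arms hold 1 library each and the values come from no test.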
